A study of Mus musculus with 12 samples.

Results

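Transcript levels of 10 genes of the late neutrophil granule program were compared in myeloid-derived suppressor cells (MDSCs) sorted from mouse liver tumors. The genes were taken as a list of symbols, Ngp, Camp, Ltf, Lcn2, Mmp8, Mmp9, Cd177, Chil3, Padi4 and Itgb2l. The list was chosen with earlier results of these data known, so the counts of called genes are not those of a list picked blind. All 10 were found among the 24346 gene symbols of each library and all passed the filter on low values. The 12 libraries covered the monocytic subset (M-MDSCs, CD11b+ Ly-6C-high Ly-6G-) and the polymorphonuclear subset (PMN-MDSCs, CD11b+ Ly-6C-intermediate Ly-6G+). Each subset was sampled from mice given vehicle, MS275 or CXD101, with 2 libraries in each of the 6 groups. The study uses MS275 (entinostat) and CXD101 as inhibitors of HDAC1, HDAC2 and HDAC3. These are class I histone deacetylases, enzymes that remove acetyl groups from histones. Per the study's methods, female C57BL/6J mice of 6 to 8 weeks, with no genetic change named, carried Hepa 1-6 tumors, a mouse hepatoma line grown in the liver. Mice above a set proportion of MDSCs in blood were selected 10 days after inoculation. Each compound was injected into the peritoneum daily at 5 mg/kg for 10 days, from 10 days after inoculation, and tumors were collected on day 21. The study describes this schedule for the M-MDSC experiment, and the labels give the PMN-MDSC libraries the same treatments. The study calls its MDSC expression libraries biological replicates. Whether each came from 1 mouse or from pooled mice was not given in the sources used here, so p-values measure only the spread between these libraries.

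Neutrophils build their granules in sequence as they mature. Primary granules with myeloperoxidase and serine proteases form in promyelocytes, secondary (specific) granules in myelocytes and metamyelocytes, and tertiary (gelatinase) granules in the last stages before release. The mRNA for each granule class is made mainly at that stage, so a mature neutrophil holds many granule proteins whose transcripts it has largely lost. C/EBP epsilon, a transcription factor encoded by Cebpe, is required for the secondary granule genes. Ngp (neutrophilic granule protein), Camp (the cathelicidin precursor), Ltf (lactoferrin) and Lcn2 (lipocalin 2, a siderophore-binding protein) encode secondary granule contents. Mmp8 encodes neutrophil collagenase and Mmp9 encodes gelatinase B, the namesake of the tertiary granule. Cd177 encodes a surface protein also held in secondary granule membranes, and Itgb2l an integrin beta-like chain of mouse neutrophils. Chil3 encodes the chitinase-like protein Ym1, which macrophages can also make, and it has a close paralog, Chil4, with which it can share reads. Padi4, which encodes the enzyme that citrullinates histones in neutrophil extracellular traps, is a late neutrophil gene but its product is not a granule protein.

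Camp, Ngp and Ltf lay near each other on chromosome 9 of GRCm38 (GENCODE vM21), from 109847379 to 109849617, 110419747 to 110423012 and 111019271 to 111042767. The gap from Camp to Ngp was 570 kb and that from Ngp to Ltf was 596 kb. Itgb2l overlapped the gene Igsf5 on the other strand, which did not exceed 0.501 FPKM in any library. RefSeq promoter windows (GRCm38.p6) were at hand for 9 of the 10 genes, all but Mmp9. The 250 bases before each RefSeq start were searched on both strands for TTGCNNAA, a form of the C/EBP recognition sequence that reads TTNNGCAA on the opposite strand. A match was present in 4 of the 9 windows, those of Ngp, Ltf, Lcn2 and Mmp8, and in 9.56% of the 32851 windows of all genes. Camp, Cd177, Chil3, Padi4 and Itgb2l held no match, which says only that these letters were not in the window. The windows of the 4 genes with a match, and of Camp for comparison, are shown 5′ to 3′ in the sense of the gene, with matches in capitals. They lie at chr9:110419558-110419807 (plus strand), chr9:111019042-111019291 (plus), chr2:32387740-32387989 (minus), chr9:7558179-7558428 (plus) and chr9:109849457-109849706 (minus). Of the 250 bases, 61 for Ngp, 21 for Ltf, 250 for Lcn2 and 161 for Camp fell inside the longer GENCODE gene model, and 0 for Mmp8.
Ngp: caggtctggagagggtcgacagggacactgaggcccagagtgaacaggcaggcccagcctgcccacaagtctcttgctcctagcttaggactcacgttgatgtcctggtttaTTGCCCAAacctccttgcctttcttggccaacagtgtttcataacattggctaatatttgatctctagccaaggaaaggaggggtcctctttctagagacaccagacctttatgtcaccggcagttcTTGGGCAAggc
Ltf: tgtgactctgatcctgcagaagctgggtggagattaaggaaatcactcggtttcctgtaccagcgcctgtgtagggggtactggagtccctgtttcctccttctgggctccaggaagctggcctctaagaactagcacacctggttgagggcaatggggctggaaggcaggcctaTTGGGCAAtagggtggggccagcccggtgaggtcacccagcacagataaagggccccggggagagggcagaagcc
Lcn2: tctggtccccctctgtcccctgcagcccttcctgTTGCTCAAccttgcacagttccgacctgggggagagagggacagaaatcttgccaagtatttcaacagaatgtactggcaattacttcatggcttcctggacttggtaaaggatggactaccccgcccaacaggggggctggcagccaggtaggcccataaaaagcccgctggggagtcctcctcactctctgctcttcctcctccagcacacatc
Mmp8: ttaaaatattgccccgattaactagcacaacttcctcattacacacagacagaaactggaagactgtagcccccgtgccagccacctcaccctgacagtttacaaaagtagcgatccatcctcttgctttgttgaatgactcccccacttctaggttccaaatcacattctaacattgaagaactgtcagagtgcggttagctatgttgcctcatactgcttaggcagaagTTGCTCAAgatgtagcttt
Camp: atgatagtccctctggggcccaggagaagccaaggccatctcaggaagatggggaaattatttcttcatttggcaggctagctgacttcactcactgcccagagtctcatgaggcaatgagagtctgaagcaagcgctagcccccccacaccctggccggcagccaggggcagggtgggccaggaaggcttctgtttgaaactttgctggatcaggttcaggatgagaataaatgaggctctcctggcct
Ngp held 2 matches, from 138 to 131 and from 11 to 4 bases before its start, the second on the opposite strand. The match of Ltf lay 75 to 68 bases before the start on the opposite strand, that of Lcn2 216 to 209 and that of Mmp8 19 to 12. A match describes the sequence and does not show that a factor binds there.

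Values are FPKM, fragments counted on a transcript relative to its length and to the size of the library, so levels can be compared between genes. Log2 fold changes are on the log2(FPKM + 1) scale, and a gene was called when the adjusted p of limma was under 0.05 and the fold change above 1.5. FPKM summed to 564078 to 596407 in the M-MDSC libraries and to 656932 to 860841 in the PMN-MDSC libraries. Depth, estimated from the steps between low values, was 9.12 to 11.6 M reads in M-MDSCs and 7.59 to 8.85 M in PMN-MDSCs. The labelled subsets were checked against markers. Csf3r, the G-CSF receptor of neutrophils, averaged 226 FPKM in vehicle PMN-MDSCs and 9.61 in vehicle M-MDSCs, and Ccr2, a monocyte chemokine receptor, was at 35.7 and 40.7 FPKM against 137 and 147. Not all markers followed the labels. Of 7 monocyte markers, 5 were called lower in vehicle PMN-MDSCs than in vehicle M-MDSCs and 1 higher. Of 9 macrophage markers, 6 were called higher there and 1 lower, and of 7 eosinophil markers tested, 4 higher and 1 lower. Of all genes, 17.2% were called higher and 16.8% lower. Erythroid markers summed to at most 0.873 FPKM and lymphocyte and NK markers to at most 3.61 in any library. Of the hepatocyte and liver tumor markers, Ttr, Serpina1a and Fgb were at 0 in every library, and Trf, at 155 to 270.5 FPKM in PMN-MDSCs and 38.8 to 62.7 in M-MDSCs, made up nearly all of their sum. S100a8 and S100a9, the calprotectin genes, held 1.78 to 4.28% of all FPKM in M-MDSCs, 10.2 and 13.7% in vehicle PMN-MDSCs and 27.3 to 30.9% in treated PMN-MDSCs. In sorted bulk samples, fewer cells of a type and less RNA per cell cannot be told apart.

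Without treatment all 10 genes had their higher level in PMN-MDSCs, against 17.2% of the 11662 genes tested that were called higher and 16.8% called lower. Their median log2 fold change was 2.44, beside -0.01 for all genes. Mmp9 was at 978 and 1144 FPKM in the vehicle PMN-MDSC libraries and at 7.27 and 10.4 in the vehicle M-MDSC libraries. Its log2 fold change of 6.77 (SE 0.191, adjusted p = 1.82e-09) was the highest of all genes tested. Cd177, at 268 and 301 against 25.7 and 37.0 FPKM, and Ltf, at 693 and 760.0 against 73.3 and 102 FPKM, followed with log2 fold changes of 3.16 (SE 0.130) and 3.06 (SE 0.122). Mmp8, Padi4, Lcn2, Itgb2l and Camp had log2 fold changes of 2.57, 2.51, 2.36, 2.36 and 2.11. Ngp differed less, with a log2 fold change of 1.62 (SE 0.0861, adjusted p = 8.56e-08). Chil3 was the least separated, at 1969 and 1995 FPKM against 1333 and 1226, a log2 fold change of 0.63 (SE 0.0645, adjusted p = 9.84e-06). Without the second vehicle library of M-MDSCs the value for Chil3 was 0.57, below the fold threshold.

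The order of the levels differed between the subsets. In vehicle PMN-MDSCs Lcn2 was highest, with a mean of 2209 FPKM, followed by Chil3, Ngp, Mmp9, Ltf, Mmp8, Camp, Cd177, Padi4 and Itgb2l at 50.1 FPKM. Library values overlapped only between the neighbours Ltf and Mmp8 and between Camp and Cd177. In vehicle M-MDSCs Chil3 led with a mean of 1280 FPKM, ahead of Ngp and Lcn2, and Mmp9 was last at 8.85 FPKM, overlapping its neighbour Itgb2l. Together the 10 genes made up 1.31 and 1.39% of all FPKM in vehicle PMN-MDSCs and 0.435 and 0.438% in vehicle M-MDSCs.

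**Figure D1:**
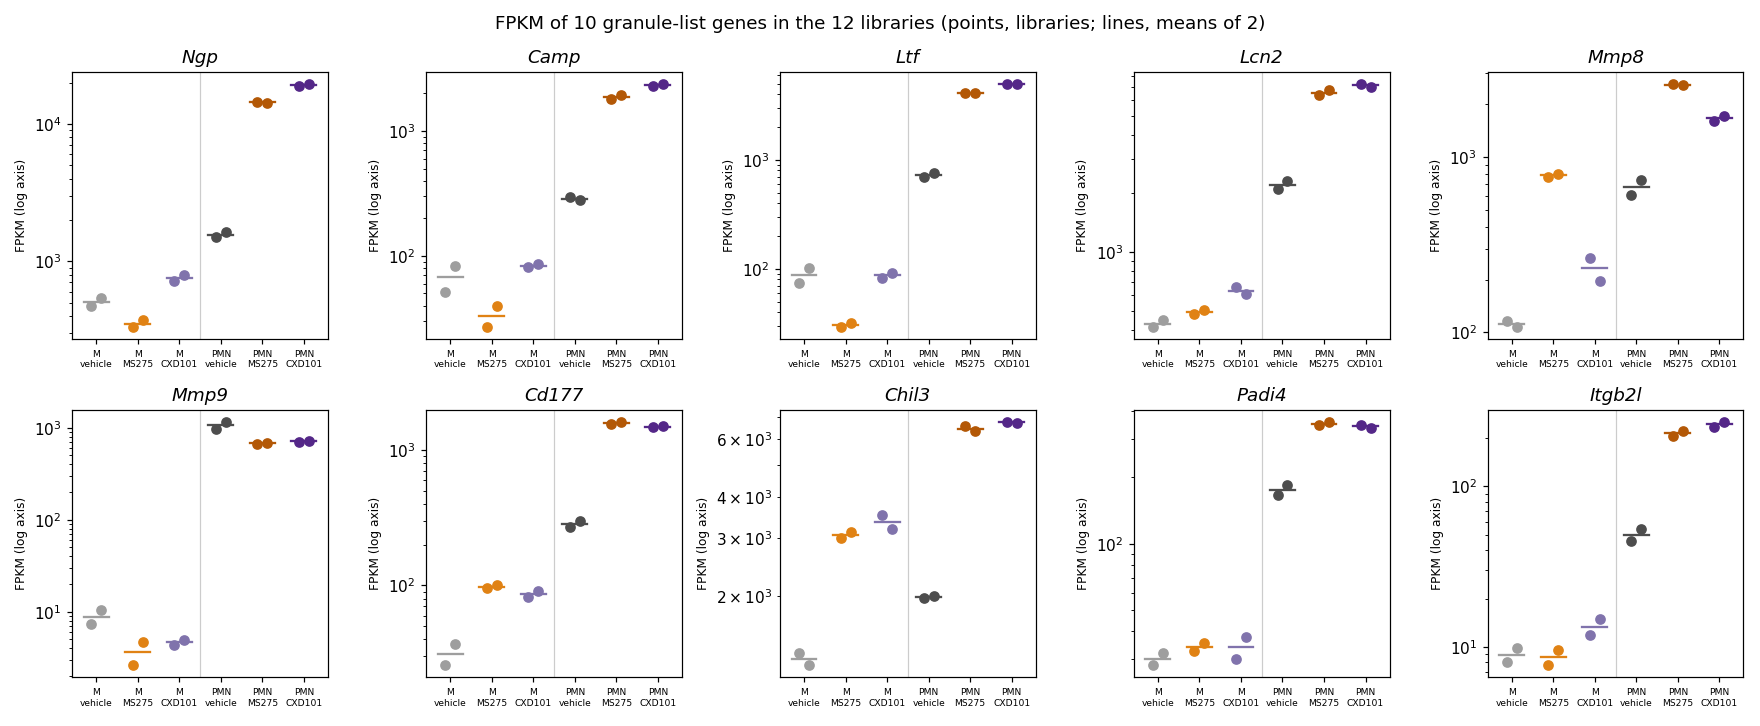
FPKM of the 10 genes on log axes, one panel per gene, with a point for each of the 2 libraries per group and a line at their mean. In PMN-MDSCs every gene but Mmp9 sat higher in the 4 treated libraries than in the 2 vehicle libraries, with Ngp rising from 1494 and 1625 FPKM to between 14306 and 19538. In M-MDSCs Mmp8, Cd177 and Chil3 were higher under both compounds.

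In PMN-MDSCs 9 of the 10 genes, all but Mmp9, were higher with each inhibitor. With MS275, 9 genes were called higher and 1 lower, against 14.6% of the 11184 genes tested called higher and 14.2% called lower. With CXD101, 9 were called higher and 0 lower, against 11.9% and 9.54%. The median log2 fold change was 2.01 for both compounds, beside -0.03 for all genes in each case. Both comparisons use the same 2 vehicle libraries. In each, the treated and vehicle library values did not overlap for any of the 10 genes. With 2 libraries per group this says little: values also did not overlap for 9 of the 10 between MS275 and CXD101, where 1 was called. The share of all genes without overlap was not computed.

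Ngp and Camp had the largest log2 fold changes of the 10 with both compounds, followed by Ltf, which with MS275 lay within its SE of Cd177, while Lcn2 moved less. Ngp was at 1494 and 1625 FPKM under vehicle, 14556 and 14306 under MS275, and 19038 and 19538 under CXD101. The log2 fold changes were 3.21 (SE 0.0720, adjusted p = 4.18e-07) and 3.63 (SE 0.0720, adjusted p = 2.28e-07), ranking 17th and 2nd from the top among all genes tested. Ngp thereby moved from places 41 and 38 among the most abundant transcripts of a vehicle library to 4 and 5 under MS275 and 3 in both CXD101 libraries. Camp, which encodes the antimicrobial cathelicidin, was at 295 and 278 FPKM under vehicle, 1821 and 1954 under MS275, and 2299.9 and 2379.6 under CXD101. This gave log2 fold changes of 2.71 (SE 0.0647) and 3.02 (SE 0.0647). Ltf was at 693 and 760.0 FPKM under vehicle, 4077 and 4098 under MS275, and 4945 and 4981 under CXD101, for log2 fold changes of 2.49 (SE 0.0662) and 2.77 (SE 0.0662). Lcn2, the highest of the 10 under vehicle at 2096 and 2322 FPKM, reached 6367 and 6801 under MS275 and 7285 and 7059 under CXD101. The changes in log2 were smaller, 1.58 (SE 0.0762) and 1.70 (SE 0.0762). The adjusted p-values of Camp, Ltf and Lcn2 lay between 3.04e-07 and 6.88e-06.

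The transcripts of the 2 matrix metalloproteinases went in opposite directions. Mmp8, the collagenase, was at 609 and 733 FPKM under vehicle, 2592 and 2555 under MS275, and 1602 and 1701 under CXD101. The log2 fold changes were 1.94 (SE 0.0900, adjusted p = 5.12e-06) and 1.30 (SE 0.0900, adjusted p = 4.33e-05). Mmp9, the gelatinase, was at 978 and 1144 FPKM under vehicle, 668 and 681 under MS275, and 695 and 724 under CXD101. It fell by 0.65 on the log2 scale with MS275 (SE 0.0801, adjusted p = 3.87e-04), the only one of the 10 genes called lower. The call for Mmp9 was lost, at -0.54, without the second vehicle library of PMN-MDSCs. With CXD101 the value for Mmp9 was -0.58 (SE 0.0801, adjusted p = 9.77e-04), which passed on p but not on fold. It passed both when the libraries were rescaled without S100a8 and S100a9, at -0.60, and without the first vehicle library or the second CXD101 library, at -0.69 and -0.61.

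The transcripts of the surface proteins rose together. Cd177 was at 268 and 301 FPKM under vehicle, 1552 and 1601 under MS275, and 1469.6 and 1499 under CXD101, with log2 fold changes of 2.47 (SE 0.0691) and 2.38 (SE 0.0691). Itgb2l was at 45.7 and 54.4 FPKM under vehicle, 206 and 220.2 under MS275, and 235 and 251 under CXD101, with log2 fold changes of 2.07 and 2.26 (SE 0.0904 each). Chil3 was at 1969 and 1995 FPKM under vehicle and between 6347 and 6768 in the 4 treated libraries, with log2 fold changes of 1.70 and 1.77 (SE 0.0616 each). Padi4, the enzyme gene outside the granules, rose least, from 167 and 184 FPKM to 344 and 355 under MS275 and 347 and 335 under CXD101, with log2 fold changes of 0.99 and 0.96 (SE 0.0661 each). The adjusted p-values of these 4 genes lay between 7.30e-07 and 4.34e-05.

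The 10 genes together made up 4.54 and 4.61% of all FPKM in the MS275 PMN-MDSC libraries and 5.25 and 5.34% in the CXD101 libraries. Other markers moved beside them. The 9 macrophage markers summed to 828 and 909 FPKM in vehicle PMN-MDSCs, to 459 and 494 under MS275, where 7 were called lower and 1, Apoe, higher, and to 511 and 523 under CXD101, where 6 were called lower. The 7 monocyte markers summed to 706 and 785 FPKM under vehicle and to between 1570 and 1853 in the treated libraries, where Ly6c2, which contributed most, was the only one called higher with either compound and 3, Csf1r, Cx3cr1 and Vcan, were called lower with each. None of the 9 macrophage markers was at 0 in all libraries of a group. The part of these shifts in the rise of the granule genes was not tested.

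**Figure D2:**
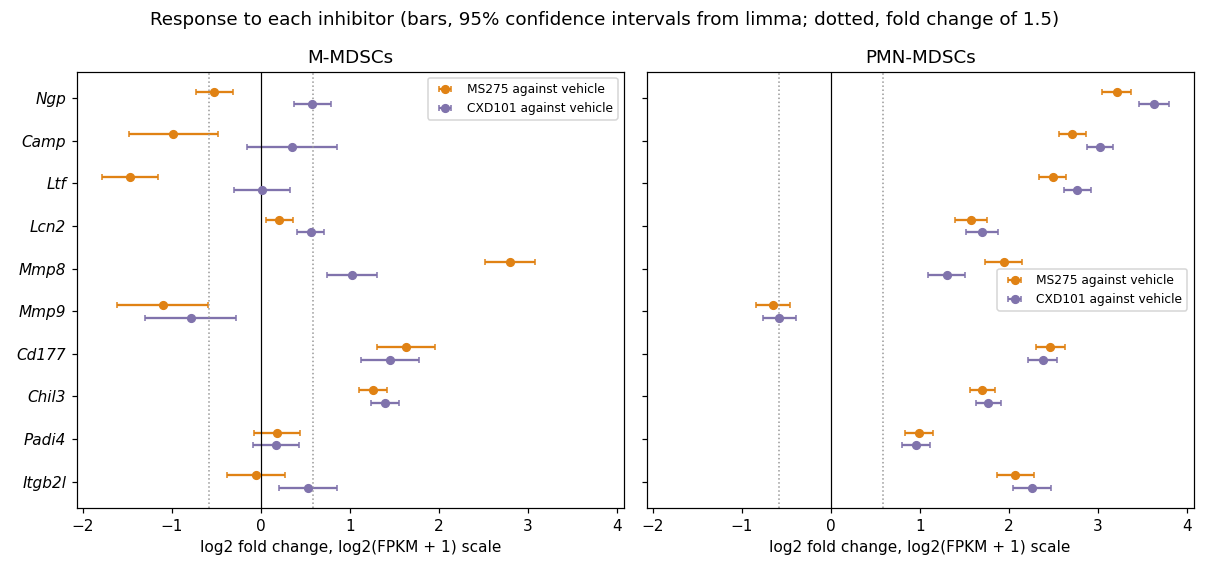
Log2 fold changes of the 10 genes against vehicle for MS275 (orange) and CXD101 (purple) in M-MDSCs (left) and PMN-MDSCs (right), with 95% confidence intervals and dotted lines at a fold change of 1.5. In PMN-MDSCs 9 genes lay to the right of the upper line and Mmp9 lay near the lower one, with log2 fold changes from -0.65 to 3.63. In M-MDSCs the genes spread on both sides of 0, from -1.47 for Ltf to 2.80 for Mmp8, both with MS275.

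In M-MDSCs the same genes split. With MS275, 3 of the 10 genes, Mmp8, Cd177 and Chil3, were called higher, and 3, Ltf, Mmp9 and Camp, were called lower, against 10.1% and 7.32% of the 11078 genes tested. With CXD101, Cd177, Chil3 and Mmp8 were called higher and Mmp9 lower, against 5.14% and 3.0% of all genes. The median log2 fold changes of the 10 genes were 0.06 and 0.54, beside -0.06 and -0.02 for all genes. The 2 comparisons share the vehicle libraries.

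Mmp8 had the largest change of the 10 in M-MDSCs with MS275, while with CXD101 Cd177 and Chil3 changed more. It was at 117 and 107 FPKM under vehicle, 768 and 801 under MS275, and 266 and 196 under CXD101. The log2 fold changes were 2.80 (SE 0.123, adjusted p = 3.04e-06), 17th from the top among all genes, and 1.02 (SE 0.123, adjusted p = 9.28e-04). Cd177 was at 25.7 and 37.0 FPKM under vehicle, 95.3 and 100 under MS275, and 81.7 and 90.5 under CXD101, with log2 fold changes of 1.63 and 1.45 (SE 0.142 each). Chil3, the most abundant of the 10 in all M-MDSC groups, went from 1333 and 1226 FPKM to 3007 and 3126 under MS275 and 3519 and 3197 under CXD101, with log2 fold changes of 1.26 and 1.39 (SE 0.0697 each). These 3 genes were called higher and Mmp9 lower with both compounds. The eosinophil markers, several of which rose in M-MDSCs, moved beside them. Their sum was 160 and 197 FPKM under vehicle and between 377 and 418 in the treated libraries, with 4 of the 6 tested called higher with MS275 and 5 with CXD101. Ear2 held most of the vehicle sum, at 137 and 174 FPKM, and was called only with CXD101. Prg2 was at 10.6 and 6.56 FPKM under vehicle, 113 and 133 under MS275, and 94.0 and 102 under CXD101. The 9 macrophage markers summed to 598 and 621 FPKM under vehicle, 406 and 436 under MS275, and 537 and 554 under CXD101. Of them 5 were called lower and 0 higher with MS275, and 3 lower and 1 higher with CXD101. C1qb, among those called lower with both, averaged 14.7 FPKM under vehicle, 0.630 under MS275 and 4.11 under CXD101. The part of either marker list in the response of the 10 genes was not tested.

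None of Ngp, Camp, Ltf and Lcn2 was called higher in M-MDSCs, against 10.1% of all genes tested with MS275 and 5.14% with CXD101. Ltf was at 73.3 and 102 FPKM under vehicle, 29.1 and 31.8 under MS275, and 82.1 and 92.2 under CXD101. It fell by 1.47 on the log2 scale with MS275 (SE 0.137, adjusted p = 8.55e-05), and its value with CXD101 was 0.01 (95% confidence interval -0.30 to 0.32). Camp was at 51.8 and 82.8 FPKM under vehicle, 26.9 and 39.5 under MS275, and 80.8 and 86.8 under CXD101. It fell by 0.98 with MS275 (SE 0.220, adjusted p = 0.00698), and the CXD101 value was 0.35 (-0.15 to 0.85). Ngp, at 470.1 and 544 FPKM under vehicle, was at 331 and 372 under MS275 and at 714 and 795 under CXD101. The log2 fold changes of Ngp, -0.52 (adjusted p = 0.00201) and 0.57 (adjusted p = 0.00325), passed on p and missed on fold. The value for Ngp with CXD101 reached 0.60 and was called under each of 3 other scalings, and the MS275 value was called, at -0.63 and -0.61, without the first vehicle library or the second MS275 library. Lcn2 was at 412 and 446 FPKM under vehicle, 482 and 506 under MS275, and 659 and 606 under CXD101, with log2 fold changes of 0.20 (adjusted p = 0.0344) and 0.56 (adjusted p = 8.64e-04) that missed on fold. The CXD101 value for Lcn2 was called, at 0.62 in each case, without the second vehicle library or the second CXD101 library.

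Mmp9 was low in M-MDSCs, at 7.27 and 10.4 FPKM under vehicle, 2.61 and 4.65 under MS275, and 4.32 and 4.95 under CXD101. It fell by 1.11 with MS275 (SE 0.222, adjusted p = 0.00423) and by 0.79 with CXD101 (SE 0.222, adjusted p = 0.0355). The CXD101 call for Mmp9 was lost with no filter on low values (adjusted p = 0.111), with no intensity trend (0.0645), and without the second vehicle library or either CXD101 library (0.0937 to 0.176). Padi4 stayed between 28.1 and 37.7 FPKM in all 6 M-MDSC libraries, with log2 fold changes of 0.18 (95% confidence interval -0.08 to 0.44) with MS275 and 0.17 (-0.09 to 0.42) with CXD101. Itgb2l, at 8.08 and 9.82 FPKM under vehicle, was at 7.67 and 9.51 under MS275 and 11.9 and 14.8 under CXD101. Its log2 fold change of -0.05 (-0.38 to 0.27) with MS275 did not pass, and that of 0.53 (adjusted p = 0.0303) with CXD101 missed on fold. The latter was called, at 0.65 and 0.67, without the second vehicle library or the first CXD101 library.

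The difference in response between the subsets was tested in one model of all 12 libraries. For MS275, 7 of the 10 genes responded more in PMN-MDSCs and 1 less, against 8.65% and 9.48% of the 11662 genes tested. For CXD101, 7 responded more and 0 less, against 7.31% and 6.59%. With MS275 the differences in log2 fold change were 3.97 for Ltf (SE 0.173), 3.74 for Ngp (SE 0.122) and 3.70 for Camp (SE 0.276), which ranked 4, 6 and 7 from the top among all genes. With CXD101 they were 3.05 for Ngp, 2.76 for Ltf and 2.67 for Camp. Itgb2l, Lcn2, Cd177 and Padi4 followed with 2.13, 1.37, 0.84 and 0.81 for MS275 and 1.73, 1.14, 0.93 and 0.79 for CXD101. Mmp8 was the exception, with a difference of -0.85 for MS275 (SE 0.176, adjusted p = 0.00477) and 0.28 for CXD101 (95% confidence interval -0.11 to 0.67). Chil3, at 0.44 and 0.38, passed on p and missed on fold, and under quantile normalization its differences turned to -0.81 (adjusted p = 0.00131) and -0.62 (adjusted p = 0.00742). Mmp9, at 0.46 (-0.14 to 1.05) and 0.21 (-0.38 to 0.81), did not pass.

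Under both compounds the PMN-MDSC level stood further above the M-MDSC level for most of the 10 genes. Under MS275 all 10 were called higher in PMN-MDSCs, against 25.2% of all genes called higher and 25.2% lower, and under CXD101 all 10 again, against 24.4% and 24.5%. Their median log2 fold changes were 4.24 and 4.09. The mean Ngp level in M-MDSCs was 32.5% of that in PMN-MDSCs under vehicle, 2.44% under MS275 and 3.91% under CXD101. For Ltf the same shares were 12%, 0.745% and 1.76%, and for Camp 23.5%, 1.76% and 3.58%. Mmp8 went the other way under MS275, from 16.7% to 30.5%, and was at 14.0% under CXD101. Mmp9 was below 1% throughout, at 0.834%, 0.538% and 0.653%. The M-MDSC share of Retnlg, a neutrophil marker, was 0.969%, 0.542% and 0.597%, and that of Csf3r was 4.26%, 7.39% and 7.81%. Chil3 kept the highest share, at 64.6%, 47.5% and 49.7%, and its call between the subsets was lost under quantile normalization with MS275 (0.17) and CXD101 (0.36).

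**Figure D3:**
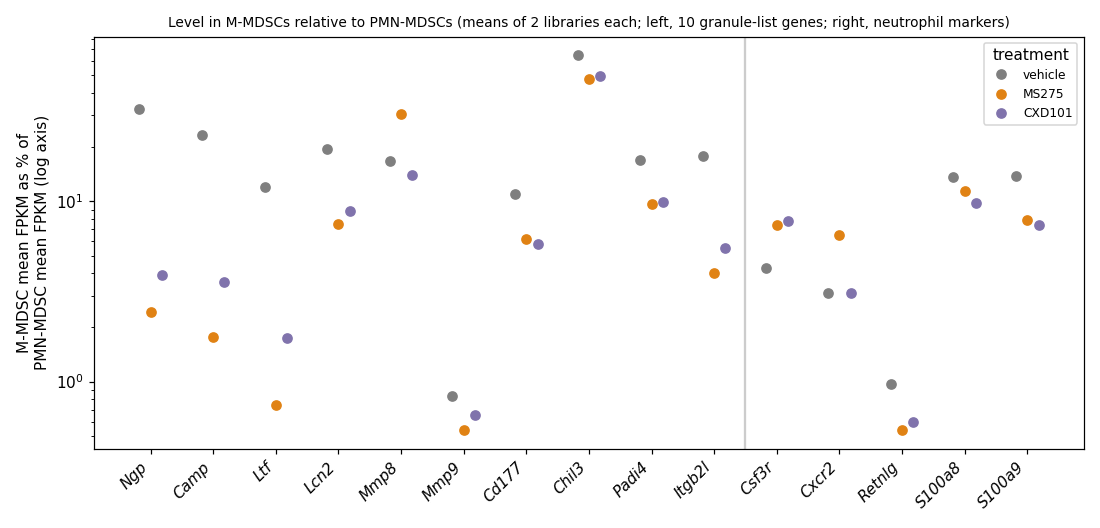
Mean FPKM in M-MDSCs as a percentage of mean FPKM in PMN-MDSCs on a log axis, for the 10 genes (left of the line) and 5 neutrophil markers (right), with 1 point per treatment from 2 libraries each. Ngp, Camp and Ltf dropped from between 12% and 32.5% under vehicle to between 0.745% and 3.91% under either compound, while Mmp8 rose to 30.5% under MS275 and Mmp9 was below 1% throughout.

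MS275 and CXD101 were given at the same dose and schedule, and each of the 10 genes was compared between them in each subset, 20 gene comparisons in all, with p-values adjusted over all genes of the subset. In M-MDSCs 4 of the 10 genes differed, 1 higher and 3 lower with MS275, against 3.22% and 1.17% of all genes. Mmp8 was 3.42-fold higher with MS275 than with CXD101 on the log2(FPKM + 1) scale (log2 difference 1.77, SE 0.123, adjusted p = 3.78e-04). Ltf, Camp and Ngp were lower with MS275, by log2 differences of -1.49 (SE 0.137, adjusted p = 8.04e-04), -1.33 (SE 0.220, adjusted p = 0.00817) and -1.10 (SE 0.0903, adjusted p = 5.22e-04). Lcn2 (-0.36, adjusted p = 0.0123) and Itgb2l (-0.58, adjusted p = 0.0324) passed on p and missed on fold, and Itgb2l was called with a pseudocount of 0.1 (-0.63) and without the second MS275 library (-0.72). The intervals of the difference were -0.15 to 0.51 for Cd177, -0.29 to 0.03 for Chil3, -0.24 to 0.27 for Padi4 and -0.83 to 0.19 for Mmp9, so a difference beyond a fold of 1.5 lay outside the interval for Cd177, Chil3 and Padi4.

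In PMN-MDSCs the compounds differed for 1 of the 10 genes, called higher with MS275, and 0 were called lower, against 0.465% and 0.340% of all genes. Mmp8 was again higher with MS275, by a log2 difference of 0.64 (SE 0.0900, adjusted p = 0.0251). The call for Mmp8 was lost when any of the 4 MS275 or CXD101 libraries was left out (adjusted p 0.117 to 0.210), and with no filter (0.108), no intensity trend (0.10) or quantile normalization, where the difference was 0.54. Ngp was lower with MS275 by -0.42 (95% confidence interval -0.59 to -0.25, adjusted p = 0.0497), below the fold threshold, and was called under quantile normalization at -0.61. Camp and Ltf had differences of -0.31 (-0.46 to -0.16, adjusted p = 0.0785) and -0.28 (-0.43 to -0.13, adjusted p = 0.108). For Lcn2, Mmp9, Cd177, Chil3, Padi4 and Itgb2l the differences lay between -0.19 and 0.09, and the widest interval, that of Itgb2l, ran from -0.40 to 0.02. Except for Mmp8 and Ngp, a fold of 1.5 lay outside the interval of each gene.

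**Figure D4:**
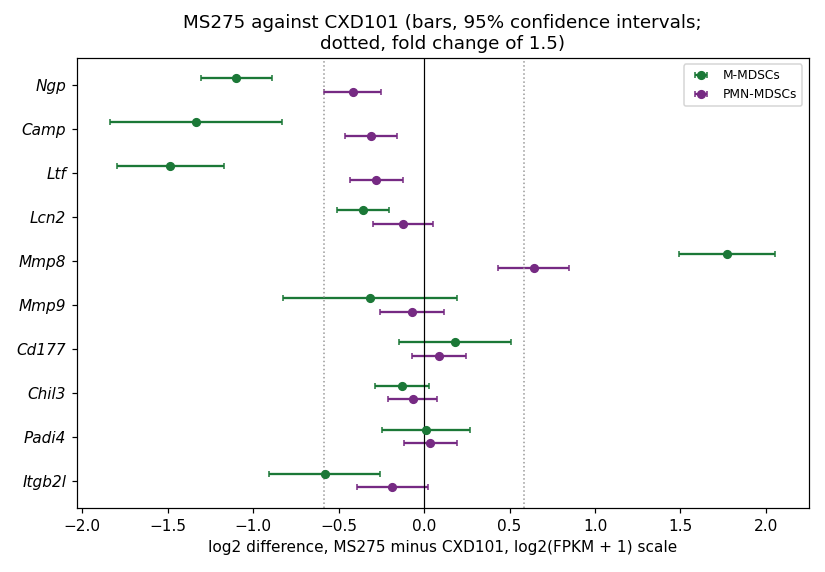
Log2 difference between MS275 and CXD101 for the 10 genes in M-MDSCs (green) and PMN-MDSCs (purple), with 95% confidence intervals and dotted lines at a fold change of 1.5. Mmp8 lay to the right in both subsets, at 1.77 and 0.64, and Ngp, Camp and Ltf lay to the left, between -1.49 and -1.10 in M-MDSCs and between -0.42 and -0.28 in PMN-MDSCs.

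The other genes of the granule program were followed as lists. The counts of these lists stand beside shares of all genes called higher and lower of 14.6% and 14.2% with MS275 and 11.9% and 9.54% with CXD101 in PMN-MDSCs, 10.1% and 7.32% with MS275 and 5.14% and 3.0% with CXD101 in M-MDSCs, and 17.2% and 16.8% for PMN-MDSCs against M-MDSCs under vehicle. The values of these lists were not recomputed under other settings, and that of Cebpe in M-MDSCs lies close to the fold threshold. Of 25 genes listed as other secondary, tertiary and secretory granule genes, 23 were tested in each subset. The list was drawn broadly, and not every product is particular to these granules, those of Cd63 and Serpinb1a among them. Under vehicle 15 were higher in PMN-MDSCs and 2 lower, led by the membrane protease Mmp25 (4.31), Slc11a1 (3.68) and Olfm4 (3.57). In PMN-MDSCs 9 were called higher and 2 lower with each compound, with medians of 0.39 and 0.31. The largest changes were those of Serpinb1a, a serine protease inhibitor of neutrophils (2.32 and 2.14), Olfm4, a secondary granule glycoprotein (2.04 and 2.0) and Fcnb, a ficolin (1.78 and 2.34). In M-MDSCs 5 were called higher and 4 lower with MS275, and 4 higher and 3 lower with CXD101. Cd63, a granule membrane tetraspanin, rose most (2.26 and 1.62), while Hp, which encodes haptoglobin, fell by 1.82 and Slc11a1, a phagosomal metal transporter, by 1.36 with MS275. Fcnb (1.47) and Orm1, which encodes orosomucoid (1.07), were the other leading changes with CXD101.

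Of the primary granule genes, under vehicle 6 of the 7 tested were lower in PMN-MDSCs and 0 higher, led by Elane (-3.06), Mpo (-2.83) and Ms4a3 (-2.83). In M-MDSCs 5 of 7 were called higher and 0 lower with each compound. Elane, neutrophil elastase, went from 436 and 440 FPKM under vehicle to 2064 and 2244 under MS275 and 1660 and 1551 under CXD101, with log2 fold changes of 2.29 and 1.87. Mpo, myeloperoxidase, had log2 fold changes of 1.90 and 1.49, and Ctsg, cathepsin G, of 1.36 and 1.16. In PMN-MDSCs 3 were called higher and 1 lower with each compound, led by Elane (1.60 and 1.28), Prss57 (1.45 and 1.41) and Ms4a3 (1.32 and 1.19). The vehicle libraries lay apart for Elane, at 74.7 and 35.6 FPKM, and the SE of its log2 fold changes was 0.291. Mpo, Prtn3 and Ctsg were called with neither compound there.

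Of 9 transcription factors of granulocyte differentiation, Cebpe was at 45.5 and 43.1 FPKM in vehicle PMN-MDSCs, 182 and 191 under MS275, and 168 and 190.1 under CXD101. The log2 fold changes were 2.05 (SE 0.0763, adjusted p = 2.48e-06) and 1.99 (SE 0.0763, adjusted p = 4.34e-06). In M-MDSCs Cebpe was at 22.7 and 25.8 FPKM under vehicle and between 31.7 and 43.7 in the treated libraries, with log2 fold changes of 0.59 (adjusted p = 0.0139) and 0.60 (adjusted p = 0.0247). The response of Cebpe was larger in PMN-MDSCs, by 1.46 with MS275 (adjusted p = 4.52e-04) and 1.39 with CXD101 (adjusted p = 8.68e-04). Gfi1, a repressor needed for neutrophil differentiation, rose in PMN-MDSCs (1.97 and 1.88) and in M-MDSCs (1.36 and 1.22). Cebpa rose in PMN-MDSCs (0.97 and 0.82) and in M-MDSCs (1.01 and 1.02), and Klf5 rose in PMN-MDSCs (1.72 and 1.37). Irf8, a factor of the monocyte lineage, fell in PMN-MDSCs with MS275 (-1.03) and Cebpd fell in M-MDSCs with MS275 (-0.85). Cebpb, Spi1 and Runx1 were called with neither compound in either subset.

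Of 13 late neutrophil genes all 13 were higher in PMN-MDSCs under vehicle, led by Retnlg (6.42), Cxcr2 (4.58) and Csf3r (4.42). In PMN-MDSCs 7 were called higher and 1 lower with MS275, and 5 higher and 1 lower with CXD101. S100a9 (1.99 and 2.02) and Cxcr2, the receptor that draws mature neutrophils to CXC chemokines (1.71 and 1.42), rose and Csf1 fell (-2.13 and -1.93). In M-MDSCs 4 were called higher with each compound, led by Cxcr2 (2.42 and 1.16), and 0 and 2 were called lower. Of 12 proliferation genes all 12 were lower in PMN-MDSCs under vehicle, led by Rrm2 (-1.71), Mcm2 (-1.67) and Mcm5 (-1.64). Ccnb1, which encodes cyclin B1, was the only one called in PMN-MDSCs, lower with MS275 (-1.07), and 0 were called with CXD101. In M-MDSCs Ccnb1 (-0.95), Ccnb2 (-0.77) and Birc5 (-0.60) were called lower with MS275 and 0 with CXD101.

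**Figure D5:**
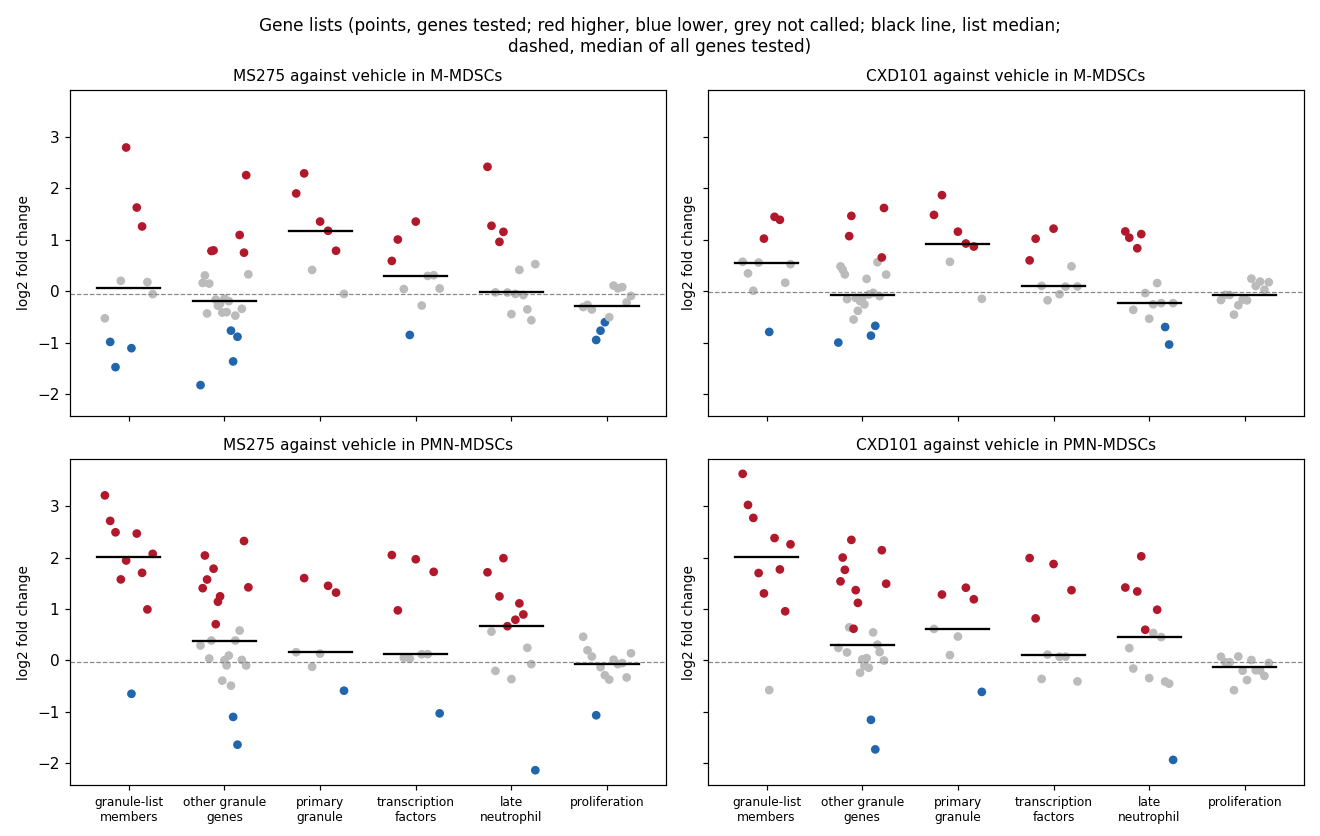
Log2 fold changes against vehicle of the genes tested in 6 lists, in M-MDSCs (top) and PMN-MDSCs (bottom), for MS275 (left) and CXD101 (right). Points are genes (red called higher, blue lower, grey not called), black lines are list medians and the dashed line is the median of all genes. The 10 late granule genes had a median of 2.01 in PMN-MDSCs with either compound, and the primary granule genes had medians of 1.18 and 0.93 in M-MDSCs.

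Genes whose log2 levels tracked the mean of the 10 genes were ranked by Pearson correlation, given as a description because the libraries share groups and normalization. Over the 12 libraries and 8411 genes, the closest were Pglyrp1, a peptidoglycan recognition protein of secondary granules (r = 0.998), Olfm4 (0.998), Kbtbd7 (0.996), Prdx5, a peroxiredoxin (0.996), and Irf7, an interferon regulatory factor (0.995). Pglyrp1 averaged 677 FPKM in vehicle PMN-MDSCs and 1800.0 and 1970.0 FPKM under MS275 and CXD101. Over the 6 PMN-MDSC libraries the closest were Kit, the stem cell factor receptor, Tmem8, Prkd2, Arhgdib and Myl10, all with r of 0.999. Among the 10 genes, each member was correlated with the mean of the other 9 over the 6 libraries of a subset. In PMN-MDSCs r lay between 0.921 for Mmp8 and 0.999 for Chil3, with Mmp9 at -0.956. In M-MDSCs r ranged from -0.466 for Mmp9 to 0.930 for Lcn2, with Ltf at -0.08 and Mmp8 at -0.30.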

How the data were processed

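RNA was sequenced from 12 sorted MDSC libraries. The authors deposited 1 table of FPKM values per library. TopHat2 2.1.1, Bowtie2 2.2.8, SAMtools 0.1.18, Cuffdiff 2.2.1 and the build mm10 are named in the submitters' processing notes, without their roles; the annotation and the use of strand were not given in the sources used here. The scaling of FPKM to the library, and the large share held by S100a8 and S100a9, bear on every value. The study's text describes only the M-MDSC libraries.

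From these values, log2(FPKM + 1) was tested with limma 3.58.1 in R 4.3.3 (intensity trend, Benjamini-Hochberg adjustment over all genes tested) for genes that reached an FPKM of 1 in 2 or more libraries. Calls needed an adjusted p under 0.05 and a fold change above 1.5. Each subset had its own model, and comparisons between subsets used all 12 libraries. The counts and fold changes of the 10 genes were recomputed with other pseudocounts, filters, scalings and models, and without each library. The procedure was tested on simulated data. No counts were given, so depth was estimated and precision was taken from replicates, and no counting interval was derived. Of 124 listed symbols, 122 were found.

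The 10 genes and the other lists were chosen with earlier results of these data known. Named were the 10 genes, the 3 largest called changes of each other list, every listed transcription factor, and the 5 genes most like the mean of the 10. Python 3.11.15, numpy 2.4.6, pandas 2.3.3 and matplotlib 3.10.9 were used otherwise.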

Additional observations from a re-analysis of the deposited data

Results flagged for a closer look

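The response of several granule genes differed between PMN-MDSCs and M-MDSCs by the test of the difference itself, an interaction in limma over 12 libraries. With MS275 the log2 fold change in PMN-MDSCs exceeded that in M-MDSCs by 3.97 for Ltf, 3.74 for Ngp, 3.70 for Camp, 2.13 for Itgb2l, 1.37 for Lcn2, 0.84 for Cd177 and 0.81 for Padi4. Mmp8 went the other way, at -0.85. With CXD101 the difference was 3.05 for Ngp, 2.76 for Ltf, 2.67 for Camp, 1.73 for Itgb2l, 1.14 for Lcn2, 0.93 for Cd177 and 0.79 for Padi4. The differences for both compounds share the vehicle libraries. The value for Cd177 with MS275 was 0.58 without the second vehicle library of M-MDSCs, just below the fold threshold, and that for Lcn2 with CXD101 was 0.54 under quantile normalization, also below it.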

How the results depend on the processing

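With 2 libraries per group each estimate leans on single libraries, and a lone library left in a group is assumed to vary like the others. The counts of called genes stayed within 1.5 times of the reported count, except for MS275 against CXD101 in PMN-MDSCs, where the count of 1 became 0 with no filter on low values, with no intensity trend and, as a range over the libraries left out, 0 to 1. There the gene was Mmp8. The cause was not tested. Median-of-ratios scaling, a rescaling without S100a8 and S100a9, a pseudocount of 0.1 and an FPKM minimum of 5 turned no called direction.

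A change of sign occurred in 14 recomputed values, which belong to 9 gene results. Quantile normalization turned Chil3 in the difference in response to MS275 (-0.81) and CXD101 (-0.62), in MS275 against CXD101 in M-MDSCs (0.084), and Padi4 in MS275 against CXD101 in PMN-MDSCs (-0.015). In M-MDSCs, Itgb2l with MS275 became 0.010 with median-of-ratios scaling and 0.010 without S100a8 and S100a9, and ranged from -0.19 to 0.085 with 1 library left out. Ltf with CXD101 ranged from -0.22 to 0.24 with 1 library left out. For MS275 against CXD101 in M-MDSCs, Mmp9 ranged from -0.64 to 0.0075 and Padi4 from -0.15 to 0.17 with 1 library left out. Mmp9 in the difference in response to CXD101 ranged from -0.020, without the second vehicle library of M-MDSCs, to 0.45, and that with MS275 was called, at 0.78, without the second MS275 library of M-MDSCs.

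Rescaling without S100a8 and S100a9 moved the median of all genes from 0.01 to -0.11 for PMN-MDSCs against M-MDSCs under MS275, and all 10 genes were still called higher there. The replicate number as a block changed no call (6 genes called with MS275 in M-MDSCs and 10 in PMN-MDSCs, as without it). Between groups, the replicate 1 minus replicate 2 deviations correlated between -0.126 and 0.179 across genes. With 2 libraries per group, this cannot show whether same-numbered libraries came from the same mice.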
